A study of Mus musculus with 6 samples.

Results

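A set of 10 genes of the cone photoreceptor was followed in RNA-Seq of retinal cells sorted to enrich retinal ganglion cells (RGCs) after *Ezh2* overexpression. They were 10 of the 55573 gene identifiers in the count table, namely *Opn1sw*, *Opn1mw*, *Arr3*, *Gnat2*, *Gngt2*, *Pde6c*, *Pde6h*, *Cnga3*, *Cngb3* and *Thrb*. They were chosen by name for their roles in cones, and the rule used no measured level. All 10 had enough counts to be tested.

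Cones are the photoreceptors of daylight and color vision. In the cone outer segment, light isomerizes a cone opsin, which activates the G protein transducin, and transducin releases a phosphodiesterase from its inhibitory subunit. The enzyme hydrolyzes cyclic GMP, cyclic nucleotide-gated channels close, and a cone arrestin then quenches the opsin. Rods use a parallel set of proteins, mostly encoded by separate genes, and outnumber cones many times in the mouse retina.

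All 6 libraries came from adult C57BL/6J mice, 6 to 10 weeks of age and of both sexes as a rule for the work. The control group (GFP, 3 libraries) received AAV2-*GFP* in the vitreous, and the *Ezh2* overexpression group (Ezh2, 3 libraries) received AAV2-*Ezh2*. *Ezh2* encodes the histone methyltransferase of the Polycomb complex PRC2, which silences genes. In both groups the optic nerve was crushed (optic nerve crush, ONC) 2 weeks after injection, and live cells positive for CD90.2, the product of *Thy1*, were sorted 3 days after the ONC. No group without virus or without crush was analysed here, and the promoter of the vectors and the number of mice behind a library were not given in the sources used here. P values therefore measure the spread between these libraries, which may be partly technical.

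Levels are given as CPM, a gene's counts per 1000000 counts of its library, and totals ranged from 30569933 to 35971192 counts. *Ezh2* itself stood at 28.8, 34.6 and 33.0 CPM in the GFP libraries and at 78.0, 65.3 and 104.8 CPM in Ezh2 replicates 1, 2 and 3. Ezh2 replicate 3 stood apart: its log2 CPM had correlations of 0.964 and 0.965 with replicates 2 and 1, against 0.987 between these 2 replicates and 0.984 to 0.986 within the GFP group. One Ezh2 library had been excluded from the study's own comparison, and that it was replicate 3 is inferred here. The comparison below therefore used 5 libraries, all of the control and the first 2 Ezh2 replicates, and every value of Ezh2 replicate 3 is given apart.

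The RGC label was only partly borne out by marker genes. *Thy1*, the gene of the sorting antigen, had 2760 to 4095 counts, and *Rbpms*, an RNA-binding protein gene of RGCs, had 501 to 671. RGC transcription factors of the Pou4f family were near 0, with 0 to 19 counts for *Pou4f1*, 0 to 3 for *Pou4f2* and 2 to 13 for *Pou4f3* in the 6 libraries. *Glul*, the glutamine synthetase gene of Müller glia, had 195889 to 302647 counts. The cone genes are thus read in a mixture of retinal cells, in which fewer cells of a type and less RNA per cell cannot be told apart.

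The promoters of both opsins and the arrestin are shown, as the genes of the receptor and of its quenching, and because they differ in a short element. They were chosen after the values and matches were seen, and *Cnga3* and *Pde6h*, with larger fold changes than *Opn1mw* and *Arr3*, had no match and are not printed. RefSeq (build GRCm38.p6) gave windows of 300 bases, 250 before and 50 after a start site, for 7 of the 10 cone genes, with 9 windows in all. *Gngt2*, *Pde6c* and *Cngb3* were not matched. The windows were searched on both strands for TAATCC and TAATCT, the letters commonly bound by photoreceptor homeodomain factors such as CRX. The 150 bases before the start are printed 5′ to 3′ on the gene's strand, with each match in capitals.

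*Opn1sw*, chr6:29380514-29380663, minus strand: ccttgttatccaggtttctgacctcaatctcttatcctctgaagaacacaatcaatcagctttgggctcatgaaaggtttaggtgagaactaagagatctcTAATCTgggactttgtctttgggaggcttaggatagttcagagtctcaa

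*Arr3*, chrX:100605347-100605496, plus strand: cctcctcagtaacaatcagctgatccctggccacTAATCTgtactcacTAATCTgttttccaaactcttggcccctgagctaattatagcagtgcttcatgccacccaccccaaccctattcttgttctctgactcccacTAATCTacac

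*Opn1mw*, chrX:74127316-74127465, plus strand: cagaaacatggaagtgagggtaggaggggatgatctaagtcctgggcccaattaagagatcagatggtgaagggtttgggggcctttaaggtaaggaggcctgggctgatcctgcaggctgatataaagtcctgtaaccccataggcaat

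*Opn1sw* had 1 match, whose first base lay 49 bases before the start. *Arr3* had 3 matches, 10, 102 and 116 bases before the start. *Opn1mw* had none in its window. Of the other 4 genes with a window, *Gnat2* and *Thrb* each had 1 match, 19 and 46 bases before a start, and *Pde6h* and *Cnga3* had none. Of all 32851 windows of this length, 14.4% held at least 1 of the motifs, with TAATCC in 7.06% and TAATCT in 8.19%. A match describes the letters of these windows and not the binding of a factor.

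Most cone genes were higher after *Ezh2* overexpression. Of the 10, 8 were called higher and 0 lower with a fold change over 1.5 and a p below 0.05 after adjustment, in the quasi-likelihood test of edgeR (Benjamini-Hochberg over the 20241 genes tested). By the same rule 2.52% of all tested genes were called higher and 1.28% lower. Without the fold change minimum it was the same 8, beside 10.1% of all tested genes. The median log2 fold change of the 10 was 1.17, with a range from -0.21 to 1.99, beside a median of -0.01 over all tested genes. With all 6 libraries, 2 of the 10 were called higher (*Gngt2* and *Pde6c*), and 0 lower, beside 1.62% and 0.902% of 19732 tested genes. The median then was 0.92, beside 0.01 over all tested genes.

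**Figure D1:**
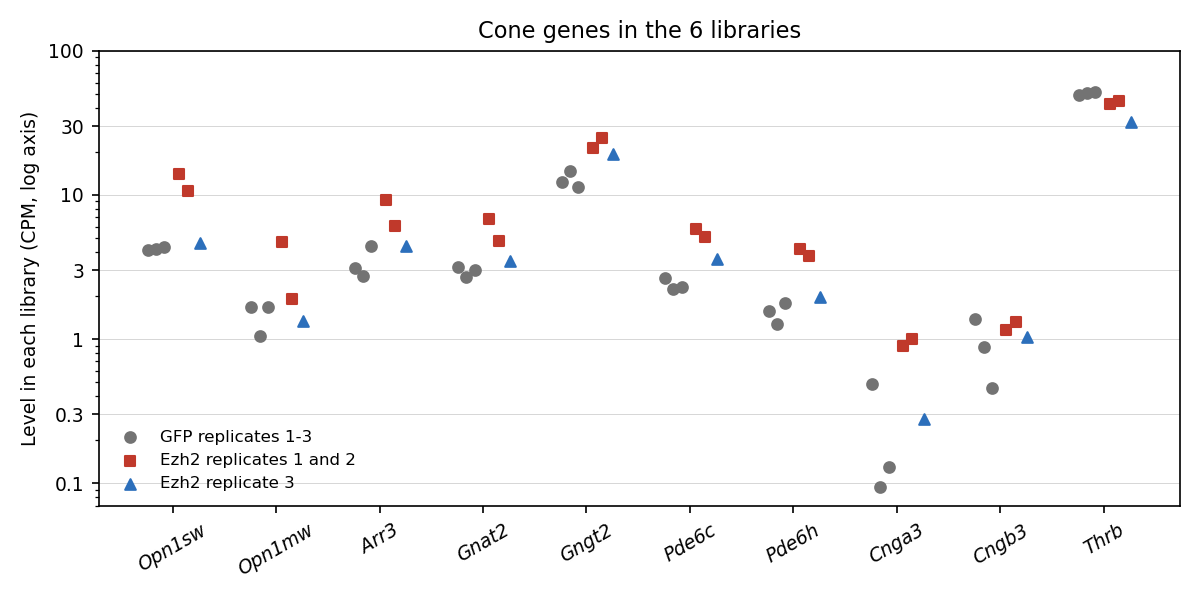
Level of each cone gene in each library, in CPM on a log axis, with GFP replicates as circles, Ezh2 replicates 1 and 2 as squares and Ezh2 replicate 3 as a triangle. Both squares lie above all 3 circles for 8 of the 10 genes, and the triangle lies below both squares for all 10.

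The opsins are the light-sensitive receptors of the cascade. *Opn1sw* (ENSMUSG00000058831; GRCm38 chromosome 6, 29376671 to 29388468, minus strand) encodes the short-wavelength opsin of mouse cones. Its level was 4.12, 4.20 and 4.36 CPM in GFP replicates 1, 2 and 3, against 14.0 and 10.6 CPM in Ezh2 replicates 1 and 2. It was 4.64 CPM in Ezh2 replicate 3. Ezh2 replicates 1 and 2 were far above the controls, which lay close together, and replicate 3 stood just above the highest control. The gene rose by a log2 fold change of 1.55 ± 0.16 (SE; edgeR quasi-likelihood, Benjamini-Hochberg adjusted p = 1.495e-08). With all 6 libraries the value was 1.23 ± 0.35 with an adjusted p of 0.088.

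*Opn1mw* (ENSMUSG00000031394; chromosome X, 74127464 to 74150760, plus strand) encodes the middle-wavelength opsin. It had 51, 33 and 51 counts in the GFP libraries and 152, 66 and 48 counts in Ezh2 replicates 1, 2 and 3. These correspond to 1.67, 1.04 and 1.66 CPM against 4.72, 1.88 and 1.33 CPM. Ezh2 replicate 1 was far above all others, replicate 2 was just above the controls, and replicate 3 lay among them. The log2 fold change was 1.18 ± 0.33 (edgeR quasi-likelihood, Benjamini-Hochberg adjusted p = 0.0129). The call rested on 1 library: without Ezh2 replicate 1 the log2 fold change was 0.40, with an adjusted p of 0.624. It was also lost without GFP replicate 2 (adjusted p = 0.061) and in limma-voom (adjusted p = 0.0694). With all 6 libraries it was 0.88 ± 0.46 (adjusted p = 0.272).

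The transducin subunits pass the signal from the opsin. *Gnat2* (ENSMUSG00000009108; chromosome 3, 108092789 to 108101432, plus strand) encodes the cone α subunit. It was measured at 3.17, 2.69 and 3.03 CPM in the GFP libraries and at 6.77, 4.77 and 3.50 CPM in Ezh2 replicates 1, 2 and 3. Every Ezh2 library was above every control, with replicate 3 the nearest. The increase in the 5 libraries was 0.97 ± 0.21 on the log2 scale (edgeR quasi-likelihood, Benjamini-Hochberg adjusted p = 0.00132). It was 0.71 without Ezh2 replicate 1, with an adjusted p of 0.0924, and 0.79 ± 0.24 with all 6 libraries (adjusted p = 0.0941).

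*Gngt2* (ENSMUSG00000038811; chromosome 11, 95837216 to 95845734, plus strand) encodes the cone γ subunit and is also transcribed in leukocytes. It stood at 12.2, 14.5 and 11.3 CPM in the GFP libraries, against 21.1, 24.9 and 19.1 CPM in Ezh2 replicates 1, 2 and 3. All 3 Ezh2 libraries were above all 3 controls. The log2 fold change was 0.87 ± 0.11 (edgeR quasi-likelihood, Benjamini-Hochberg adjusted p = 1.56e-06), and 0.81 ± 0.14 with all 6 libraries (adjusted p = 0.0136). Exons of *Gngt2* overlap those of *Abi3*, a gene of hematopoietic cells on the opposite strand, which rose by 0.68 ± 0.08 (adjusted p = 9.71e-08). Whether reads of *Abi3* entered the counts of *Gngt2* was not tested.

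The cone phosphodiesterase is the effector of the cascade. *Pde6c* (ENSMUSG00000024992; chromosome 19, 38132781 to 38183958, plus strand) encodes its catalytic subunit. Its level was 2.65, 2.21 and 2.31 CPM in the GFP libraries and 5.81, 5.11 and 3.59 CPM in Ezh2 replicates 1, 2 and 3. The 3 Ezh2 libraries all lay above the controls, with replicate 3 between the groups. *Pde6c* rose by 1.20 ± 0.22 on the log2 scale (edgeR quasi-likelihood, Benjamini-Hochberg adjusted p = 0.000136). With *Gngt2* it was the other cone gene called with all 6 libraries, at 1.05 ± 0.22 (adjusted p = 0.0283).

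*Pde6h* (ENSMUSG00000064330; chromosome 6, 136923832 to 136968865, plus strand) encodes the inhibitory γ subunit. It was at 1.57, 1.26 and 1.79 CPM in the GFP libraries, and at 4.19, 3.77 and 1.95 CPM in Ezh2 replicates 1, 2 and 3. Replicates 1 and 2 were well above the controls and replicate 3 only slightly. The log2 fold change was 1.38 ± 0.26 (edgeR quasi-likelihood, Benjamini-Hochberg adjusted p = 0.000203), and 1.13 ± 0.31 with all 6 libraries (adjusted p = 0.0674). The catalytic and the inhibitory subunit thus both rose in the 5 libraries.

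The cyclic nucleotide-gated channel carries the light response to the membrane, and its 2 subunits had the fewest counts. *Cnga3* (ENSMUSG00000026114; chromosome 1, 37214434 to 37263384, plus strand) had 15, 3 and 4 counts in the GFP libraries and 29, 35 and 10 counts in Ezh2 replicates 1, 2 and 3. Its levels were 0.491, 0.0948 and 0.130 CPM against 0.901, 0.999 and 0.278 CPM. Replicates 1 and 2 were above all controls and replicate 3 was among them, and the level in GFP replicate 2 equalled the 3 counts that a count of 0 allows. The fitted log2 fold change was 1.99 ± 0.60, the highest of the 10 and the least precise (edgeR quasi-likelihood, Benjamini-Hochberg adjusted p = 0.0184). The call was lost without GFP replicate 2, GFP replicate 3, Ezh2 replicate 1 or Ezh2 replicate 2, with adjusted p values of 0.0729, 0.0749, 0.0826 and 0.169, and without GFP replicate 1 the value was 3.05. With all 6 libraries it was 1.62 ± 0.70 (adjusted p = 0.195).

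*Cngb3* (ENSMUSG00000056494; chromosome 4, 19280850 to 19510623, plus strand) encodes the modulatory subunit of the same channel. It had 42, 28 and 14 counts in the GFP libraries and 37, 46 and 37 counts in Ezh2 replicates 1, 2 and 3. GFP replicate 1 lay at the level of the Ezh2 libraries, so the groups overlapped. The log2 fold change of 0.46 ± 0.42 did not pass (edgeR quasi-likelihood, Benjamini-Hochberg adjusted p = 0.515). The 3 controls alone spanned 14 to 42 counts.

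Arrestin ends the signal. *Arr3* (ENSMUSG00000060890; chromosome X, 100605497 to 100618493, plus strand), the cone arrestin gene, was at 3.11, 2.72 and 4.43 CPM in the GFP libraries. In Ezh2 replicates 1, 2 and 3 it was at 9.19, 6.05 and 4.39 CPM. Replicates 1 and 2 were above the controls, and replicate 3 was just below the highest of them. *Arr3* rose by 1.16 ± 0.21 on the log2 scale (edgeR quasi-likelihood, Benjamini-Hochberg adjusted p = 0.0001995), and the value was 0.97 ± 0.29 with all 6 libraries (adjusted p = 0.0852).

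*Thrb*, the thyroid hormone receptor β gene, directs opsin choice in developing cones and is also transcribed in other cells. *Thrb* (ENSMUSG00000021779; chromosome 14, 17660261 to 18038090, plus strand) was the only one of the 10 with a negative fold change. It was at 49.3, 51.2 and 51.8 CPM in the GFP libraries and at 42.8, 44.5 and 32.2 CPM in Ezh2 replicates 1, 2 and 3. Every Ezh2 library was below every control, as Ezh2 replicates 1 and 2 were for 23.4% of all tested genes. The log2 fold change of -0.21 ± 0.07 had an adjusted p of 0.0406 (edgeR quasi-likelihood, Benjamini-Hochberg) but was under the fold change threshold, so it was not called. Counts were per gene and did not separate the receptor isoforms of *Thrb*.

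Comparisons of levels between the cone genes used CPM per kilobase of exon, since exon lengths ranged from 1562 to 7846 bases. In the control, *Thrb* and *Gngt2* were the most abundant at 6.86 ± 0.181 and 6.75 ± 0.898 CPM per kilobase (SD, n = 3), and they did not differ beyond their spread. *Opn1sw* (1.65 ± 0.0474) and *Arr3* (1.45 ± 0.38) came next and also overlapped. *Gnat2* (0.989 ± 0.0835), *Opn1mw* (0.933 ± 0.230) and *Pde6c* (0.805 ± 0.0774) followed, below every value of *Arr3*, and the values of neighbors in this order overlapped. *Pde6h* (0.196 ± 0.0337), *Cngb3* (0.192 ± 0.0976) and *Cnga3* (0.0603 ± 0.0554) were the least abundant by this measure. Exon lengths pooled all annotated exons of a gene, and that of *Pde6h* was the longest at 7846 bases. A shorter transcript would give *Pde6h* a higher value, so its rank is uncertain. *Pde6h* overlapped *Cngb3* and *Cngb3* overlapped *Cnga3*, while *Pde6h* was above *Cnga3* in all 3 libraries. In Ezh2 replicates 1 and 2 *Gngt2* was the most abundant at 12.3 ± 1.43 CPM per kilobase (SD, n = 2). *Thrb* (5.90 ± 0.160) and *Opn1sw* (4.82 ± 0.936) came next, and their values did not overlap.

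The 3 Ezh2 libraries differed in how far the cone genes stood above the control. The median CPM of the 10 relative to the GFP mean was 2.56 in Ezh2 replicate 1, 1.87 in replicate 2 and 1.17 in replicate 3. *Opn1sw* was 3.31-fold, 2.51-fold and 1.10-fold its GFP mean in replicates 1, 2 and 3. *Gngt2* varied least among the genes called higher, at 1.67-fold, 1.97-fold and 1.51-fold. Replicate 3 was below the other Ezh2 libraries for 10 of the 10 genes, as it was for 50.9% of all tested genes and for 10 of the 10 rod counterparts described below. Replicates 1 and 2 were both above every control for 8 of the 10, against 21.5% of all tested genes, and for 8 of the 10 rod counterparts. Replicate 3 was above every control for 5 of the 10, against 31.9% of all tested genes, and these were the 5 for which all 3 Ezh2 libraries were (*Opn1sw*, *Gnat2*, *Gngt2*, *Pde6c* and *Pde6h*), against 14.9% of genes tested with 6 libraries.

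**Figure D2:**
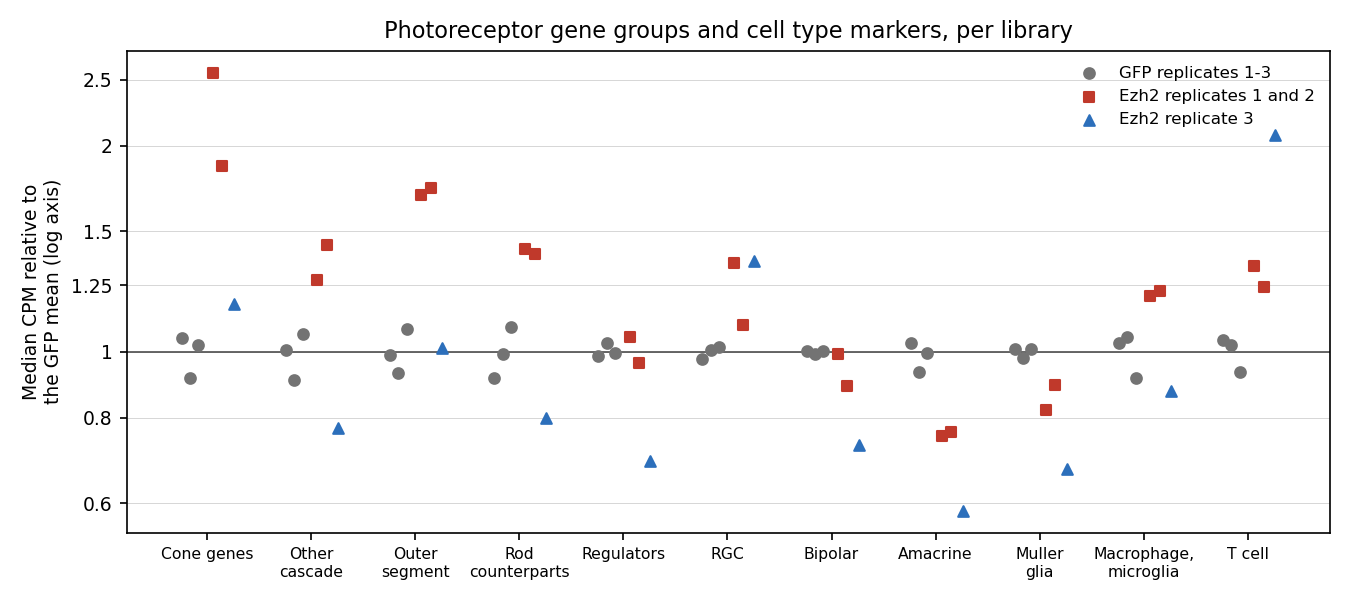
Median CPM relative to the GFP mean, on a log axis, over the genes of each group or marker list in each library, with GFP replicates as circles, Ezh2 replicates 1 and 2 as squares and Ezh2 replicate 3 as a triangle. The cone genes reach 2.56 and 1.87 in Ezh2 replicates 1 and 2 and 1.17 in replicate 3, while the rod counterparts are at 1.41, 1.39 and 0.798.

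Other photoreceptor cascade genes, some shared with rods and some of cones, were called in both directions. Of 12 such genes, 11 were tested, and *Guca1a* had 0 to 2 counts. Among all tested genes 2.52% were called higher and 1.28% lower. Called higher were 2: *Guca1b*, a guanylate cyclase activator (log2 fold change 0.64 ± 0.16), and *Abca4*, the retinoid transporter of outer segment discs (0.64 ± 0.08). *Slc24a2*, the sodium, calcium and potassium exchanger of cones, was the 1 called lower. It fell from 25.8, 19.1 and 23.9 CPM in the GFP libraries to 7.48, 9.16 and 5.31 CPM in Ezh2 replicates 1, 2 and 3. All Ezh2 libraries were below all controls, with a log2 fold change of -1.45 ± 0.13 (edgeR quasi-likelihood, Benjamini-Hochberg adjusted p = 9.47e-09). The gene is also transcribed in many brain and retinal neurons. *Gnb3*, the β subunit of cone transducin, was at 0.22 ± 0.08 (adjusted p = 0.0686) and was not called. The median over the 11 was 0.53, and with all 6 libraries it was 0.22, with 0 called higher and 1 lower.

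Transcription factors that act in photoreceptor development were called in neither direction (0 of 7), with a median log2 fold change of 0.07. For 7 genes, 0 is near the shares over all tested genes (2.52% higher and 1.28% lower). *Crx*, a regulator of both rod and cone genes, was at 0.08 ± 0.09 (edgeR quasi-likelihood, Benjamini-Hochberg adjusted p = 0.633). *Rxrg*, a retinoid receptor of cones, was at -0.34 ± 0.29 (adjusted p = 0.479). *Prdm1*, *Rorb* and *Sall3* had adjusted p values of 0.000988, 0.000649 and 0.0395 at log2 fold changes of 0.43, -0.25 and -0.55, under the fold change threshold.

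The rod genes give the closest comparison for the cone genes. Of 10 rod counterparts, 2 were called higher and 0 lower, beside 2.52% and 1.28% of all tested genes. Without the fold change minimum 7 of the 10 were higher, beside 10.1% of all tested genes. All 10 had positive log2 fold changes, with a median of 0.50 and a range from 0.26 to 0.69. *Pde6a*, a catalytic subunit gene of the rod phosphodiesterase, was at 25.5, 27.8 and 29.8 CPM in the GFP libraries and at 43.5, 45.2 and 26.5 CPM in Ezh2 replicates 1, 2 and 3. Ezh2 replicates 1 and 2 were above all controls, and replicate 3 lay among them. *Pde6a* rose by 0.69 ± 0.08 (edgeR quasi-likelihood, Benjamini-Hochberg adjusted p = 2.18e-07), and *Cnga1*, the rod channel gene, rose by 0.69 ± 0.14. *Nrl*, the regulator of rod fate, was at 0.26 ± 0.13 (adjusted p = 0.165). With all 6 libraries 0 of the 10 rod genes were called, and the median was 0.28.

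**Figure D3:**
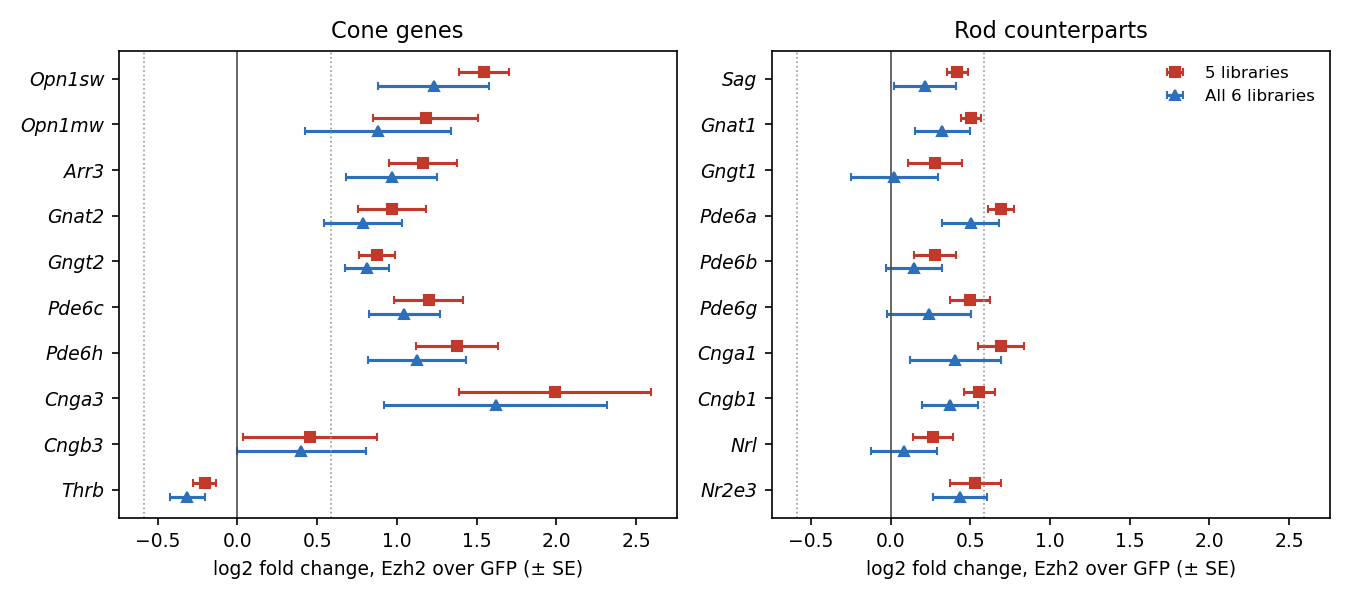
Log2 fold change of Ezh2 over GFP with its SE for the 10 cone genes (left) and the 10 rod counterparts (right), from 5 libraries (squares) and all 6 (triangles), with dotted lines at a fold change of 1.5. With 5 libraries the cone genes run from -0.21 for *Thrb* to 1.99 for *Cnga3*, and the rod genes from 0.26 to 0.69.

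Each cone gene other than *Thrb* and the opsins was set against the rod gene of the same role within each library, which needs no scaling between libraries. *Arr3* counts were 5.56%, 5.30% and 7.78% of those of the rod arrestin gene *Sag* in the GFP libraries. They were 12.9%, 8.22% and 10.6% of them in Ezh2 replicates 1, 2 and 3, so that all Ezh2 libraries were above all controls. *Pde6h* counts were 17.6%, 11.7% and 15.8% of those of *Pde6g*, against 26.7%, 28.1% and 28.0%. Here too the groups did not overlap, and the ratio in replicate 3 was level with those in the other Ezh2 libraries. In replicate 3 the rod genes were low, with *Sag* 0.758-fold and *Pde6g* 0.671-fold their GFP means. *Arr3* and *Pde6h* were 1.29-fold and 1.26-fold theirs in that library.

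*Pde6c* counts were 10.4%, 7.95% and 7.76% of *Pde6a* counts in the GFP libraries and 13.4%, 11.3% and 13.6% in Ezh2 replicates 1, 2 and 3. They were 11.5%, 12.9% and 9.83% of *Pde6b* counts in the GFP libraries and 25.1%, 18.3% and 20.1% in the Ezh2 libraries. *Gnat2* counts were 4.02%, 3.89% and 3.70% of *Gnat1* counts against 6.40%, 4.35% and 5.31%. All 3 ratios were higher in every Ezh2 library. *Gngt2* was unlike the other cone genes in exceeding its rod partner. Its counts were 239.1%, 224.4% and 151.1% of *Gngt1* counts in the GFP libraries and 275.3%, 327.0% and 519.7% in the Ezh2 libraries. In replicate 3 *Gngt1* was 0.578-fold its GFP mean and *Gngt2* was 1.51-fold its own.

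**Figure D4:**
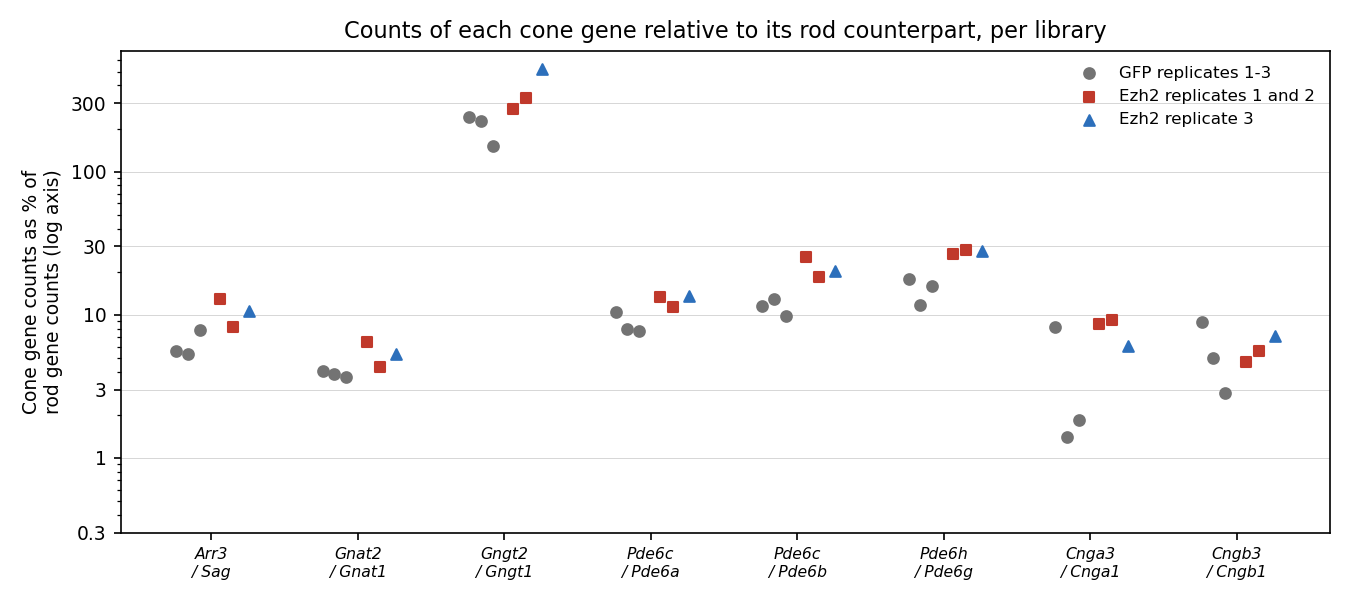
Counts of each cone gene as a percentage of the counts of its rod counterpart in each library, on a log axis, with GFP replicates as circles, Ezh2 replicates 1 and 2 as squares and Ezh2 replicate 3 as a triangle. For 6 of the 8 pairs all 3 Ezh2 libraries lie above all 3 GFP libraries, among them *Arr3* over *Sag* (12.9%, 8.22% and 10.6% against 5.56%, 5.30% and 7.78%). In Ezh2 replicate 3 every rod gene of the pairs was below its GFP mean in CPM.

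Ezh2 replicates 1 and 2 were above every control for 7 of the 8 pairs, and all 3 Ezh2 libraries were for 6 of the 8. The exception in the first count was *Cngb3* over *Cngb1*. *Pde6c* stands in 2 of the ratios, so the 8 are not independent. In replicate 3 every rod gene of the pairs was below its GFP mean in CPM, so lower rod counts also entered its ratios. How often ratios of other gene pairs separate the groups was not computed, so these counts have no background share beside them. *Gngt2*, which is also transcribed in leukocytes, is among the 6. With 3 libraries against 2, a two-sided exact permutation test cannot go below p = 0.2, and with 3 against 3 it cannot go below p = 0.1, so that test could not pass in any pair. No other test of the cone change against the rod change was run.

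Genes of outer segment structure and upkeep, shared by rods and cones, were mostly called higher. Of 10 such genes, 7 were called higher and 0 lower in the 5 libraries, beside 2.52% and 1.28% of all tested genes. The median log2 fold change was 0.81. *Rbp3*, which encodes the retinoid carrier between photoreceptors and pigment epithelium, rose by 1.06 ± 0.07 (edgeR quasi-likelihood, Benjamini-Hochberg adjusted p = 9.1e-10). *Prph2*, a disc rim protein gene, rose by 0.79 ± 0.07, and *Aipl1*, a chaperone gene for the phosphodiesterase, by 0.86 ± 0.13. With all 6 libraries 1 of the 10, *Rp1l1*, was called higher.

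Markers of other cells also moved between the groups, and their part in the cone result was not tested. Among all tested genes 2.52% were called higher and 1.28% lower. Summed over 8 macrophage and microglia markers, the level was 1624 to 1823 CPM in the GFP libraries and 3060, 3586 and 2427 CPM in Ezh2 replicates 1, 2 and 3, with 2 of the 8 called higher (*Cd68* and *Lyz2*). Without *Lyz2* the sum was 1295 to 1443 CPM against 1654, 1718 and 1203 CPM, so that replicate 3 was below the controls. The microglia markers *P2ry12* (-0.07) and *Tmem119* (0.04) were not called. The 5 T cell markers summed to 231.8 to 257.8 CPM against 330.0, 308.8 and 419.5 CPM, with *Cd8a* called higher. The 6 Müller glia markers summed to 20722 to 21117 CPM against 20288, 21779 and 16831 CPM, with 1 called higher (*Apoe*). *Apoe* alone was at 5471 to 5637 CPM against 8460, 9638 and 7102 CPM, so in the sum its rise offset lower levels of other markers. *Glul* (-0.49), *Rlbp1* (-0.31), *Aqp4* (-0.22) and *Slc1a3* (-0.20) had negative log2 fold changes with an adjusted p under 0.05, below the fold change threshold. The 10 tested RGC markers had 2 called higher (*Nefh* and *Stmn2*), and the summed level of the full list of 12 was 141.3 to 145.3 CPM against 175.8, 163.8 and 177.3 CPM.

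Among markers of other retinal neurons and of pigment epithelium, 0 were called higher, beside 2.52% of all tested genes. Of 6 bipolar cell markers, 0 were called in either direction, at 600.7 to 609.6 CPM in the GFP libraries and 602.4, 547.1 and 505.5 CPM in the Ezh2 libraries. Of 7 amacrine cell markers 1 was called lower (*Tfap2b*), at 509.1 to 529.4 CPM against 449.2, 441.4 and 397.6 CPM. *Pax6* made up most of this sum, at 441.6 to 449.8 CPM against 399.9, 396.6 and 350.3 CPM. *Gad1* was the 1 of the 7 with a positive log2 fold change (0.73, edgeR quasi-likelihood, Benjamini-Hochberg adjusted p = 0.0537) and was not called. It was at 1.93, 1.77 and 1.92 CPM in the GFP libraries and at 3.66, 2.54 and 12.1 CPM in Ezh2 replicates 1, 2 and 3. Horizontal cell markers were at 3.57 to 4.65 CPM against 1.21, 1.37 and 0.917 CPM, with 1 of 2 tested called lower (*Calb1*). *Calb1* had 97, 79 and 95 counts in the GFP libraries and 18, 11 and 3 counts in Ezh2 replicates 1, 2 and 3. The defining *Lhx1* was near 0, at 0 to 2 counts. Of the pigment epithelium markers 0 of 3 tested were called, at 4.23 to 4.82 CPM against 4.13, 4.80 and 3.22 CPM.

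Reads from an antisense partner could also enter 3 of the 10 cone genes, since the use of strand in counting was not given in the sources used here. *Opn1sw* overlaps *Calu*, which was at -0.02 ± 0.05 on the log2 scale (edgeR quasi-likelihood, Benjamini-Hochberg adjusted p = 0.863). *Pde6h* overlaps *Arhgdib*, a gene of leukocytes, at 0.48 ± 0.06 (adjusted p = 7.46e-06), and *Gngt2* overlaps *Abi3*. All 3 of these cone genes were called higher, as were 5 of the 7 without such a partner. Whether reads of the partners entered the counts of the 3 was not tested.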

How the data were processed

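RNA-Seq libraries were prepared from total RNA of the sorted cells with a stranded kit, per the labels. The authors deposited a table of raw read counts per Ensembl gene for the 6 libraries, and the submitters' processing notes name STAR 2.7.0d and build GRCm38. The counting program and its use of strand were not given in the sources used here. Each of the 6 columns matched 1 sample by its label.

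Symbols and coordinates came from GENCODE M21 (55480 of 55573 identifiers matched). The quasi-likelihood test of edgeR 4.0.16 (R 4.3.3; glmQLFit with robust estimation) was run after filterByExpr and TMM scaling, with group as the only term. Two-sided p values were corrected over all genes tested (Benjamini-Hochberg), with calls at 0.05 and a fold change of 1.5. CPM used library totals and is given as mean ± SD. Standard errors came from the F statistic. A count of 0 allows 3 counts (0.0834 to 0.0981 CPM), for counting error only. Library pairs differed by more than sampling noise, with a chi-square per gene of 5.27 or more, so none was counted as a duplicate.

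The 10 cone genes, the lists and the tests were chosen with earlier results of these data known. Named genes are the 10, their rod counterparts, called genes and abundant or defining members of the other lists, antisense partners and the 5 genes most correlated with the 10. A result of the rod list is not reported here, and the counts and medians of that list leave it out. *Prdm1*, *Rorb*, *Sall3*, *Rxrg*, *Crx*, *Gnb3*, *Guca1a* and *Gad1*, and the antisense partners, were named after their values were seen. Alternatives included all 6 libraries, each library left out, a block for the replicate number, limma-voom (limma 3.58.1), DESeq2 1.42.0, other scaling and other filters. In simulated counts of 19803 genes for the comparison of 5 libraries, 175 of 199 genes changed by a fold of 2 were recovered with 1 false call. The simulation gave every gene the same spread between libraries beyond counting noise, so it does not measure the rate of false calls in the real counts.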

Additional observations from a re-analysis of the deposited data

Results flagged for a closer look

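Ezh2 replicate 3 took no part in the comparison of 5 libraries, and in it 5 of the 10 cone genes were above the highest of the 3 GFP libraries. These were *Opn1sw* at 4.64 CPM, *Gnat2* at 3.50 CPM, *Gngt2* at 19.1 CPM, *Pde6c* at 3.59 CPM and *Pde6h* at 1.95 CPM. Of all 20241 tested genes, 31.9% were above every GFP library in that replicate. Against the highest GFP library, which stood at 4.36, 3.17, 14.5, 2.65 and 1.79 CPM for the same genes in that order, the gap was widest for *Gngt2* and *Pde6c*, the cone genes called with all 6 libraries. The other 5 cone genes lay within the range of the controls in replicate 3, except *Thrb* at 32.2 CPM, which lay below it. CPM used library totals. The TMM factor with all 6 libraries was 0.952 for replicate 3 and 1.013 to 1.015 for the GFP libraries, which raises replicate 3 against the controls. The place of *Arr3*, at 4.39 CPM against a highest control of 4.43 CPM, therefore depends on the scaling.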

How the results depend on the processing

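Each cone gene kept its direction under the alternatives that gave it a value (*Cnga3* had none with DESeq2 or a mean count of at least 50, and *Cngb3* none with the latter). The count of cone genes called higher (8) was 2 with all 6 libraries, 5 to 8 when 1 of the 5 libraries was left out (5 without Ezh2 replicate 1) and 0 to 1 when 1 of the 6 was left out other than Ezh2 replicate 3. With 1 Ezh2 library left, it was assumed to vary like the others. Deviations of samples with the same replicate number from their group means had correlations of -0.0109, -0.0165 and -0.00759. The Ezh2 mean included replicate 3, which stood apart, so these values cannot decide whether the numbers pair the libraries. With the replicate block the count was 7 (*Cnga3*, adjusted p = 0.0689), and 2 with the block and all 6 libraries. It was 7 with DESeq2 (no adjusted p for *Cnga3*), limma-voom or a mean count of at least 50, and 8 with the remaining alternatives, one of which (edgeR without robust estimation) was chosen after seeing the data. *Thrb* was the 1 cone gene called lower with no fold change minimum.

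The median log2 fold change of the cone genes (1.17) was 0.92 with all 6 libraries, 0.88 with the block as well, 0.93 to 1.35 leaving out 1 of the 5 and 0.76 to 1.02 leaving out 1 of the 6. Called genes overall (770, with 511 higher and 259 lower) came to 498 (320 higher) with all 6 libraries and to 110 to 423 (73 to 279 higher, 37 to 145 lower) leaving out 1 of those, fewest without GFP replicate 1. Leaving out 1 of the 5 gave 624 to 794 (413 to 541 higher, 211 to 296 lower). The block with all 6 gave 396 (275 higher, 121 lower), and no fold change minimum gave 3605 (2050 higher, 1555 lower). Other cascade genes called higher (2) were 0 with all 6 libraries, with or without the block or a library, 1 without GFP replicate 2, and 5 without GFP replicate 3, with the block or with no fold change minimum, where 2 were lower. Regulators (0 called) gave 1 higher and 2 lower with no fold change minimum, 1 higher with all 6 without Ezh2 replicate 2, and 1 lower without GFP replicate 1 or Ezh2 replicate 1. Rod genes called higher (2) were 0 with all 6, with or without the block or a library, 2 to 3 leaving out 1 of the 5, and 7 with no fold change minimum. Outer segment genes (7) were 1 with all 6, 0 with the block or a library less, and 6 to 8 leaving out 1 of the 5. The cause of these shifts was not tested. *Cnga3* had 3 to 35 counts per library, the fewest of the 10.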

Other observations

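Over the 6 libraries, the 5 other genes whose log2 CPM (prior count of 2) was most correlated with the mean log2 CPM of the 10 cone genes were named, from 13766 genes with a mean count of at least 100. These were *B4galt7* (Pearson r = 0.988), *Kcnv2* (0.984), *Fbxo5* (0.978), *Clec4n* (0.977) and *Mapk1ip1l* (0.977). The 6 points share their library totals and the difference between the groups, so the values are a description. *Kcnv2* encodes a potassium channel subunit of rods and cones, and stood at 8.21, 7.61 and 7.19 CPM in the GFP libraries and at 12.3, 11.5 and 8.70 CPM in Ezh2 replicates 1, 2 and 3. *Clec4n* encodes a lectin receptor of myeloid cells, and stood at 4.38, 3.73 and 3.74 CPM against 8.63, 8.22 and 5.39 CPM. In both, Ezh2 replicates 1 and 2 were the highest libraries and replicate 3 lay between them and the controls.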
